A study of Mus musculus with 2 samples.

Results

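The matrix metalloproteinases (MMPs), the ADAMTS proteases and the tissue inhibitors of metalloproteinases (TIMPs) were taken as 1 system: every protein-coding gene of the deposited table whose symbol is Mmp, Timp or Adamts followed by its number. The symbols gave 45 genes among 54713 rows of the table, of which 22046 are protein-coding: 4 TIMPs, 22 MMPs and 19 ADAMTS genes. Mmp1a also has such a symbol but is annotated as a polymorphic pseudogene, was at 0 counts in both libraries and was left out. RNA was sequenced from SV40 MES13, a mouse mesangial cell line immortalised with SV40 sequences, in 2 stable sublines with 1 library each. The control subline had received the control lentivirus and is labelled WT, and the other subline had received a lentivirus for the long noncoding RNA AI662270 and is labelled as overexpressing it. Both were selected in 0.5 mg/ml puromycin, kept in 0.25 mg/ml puromycin with 10% serum, and are labelled untreated. The labels do not say whether a subline is a pool or a clone, and what drives the transgene is not given in the sources used here.

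MMPs are zinc-dependent proteases that cleave collagens, laminins and many surface proteins, and they are made as inactive precursors held shut by a cysteine of the propeptide. ADAMTS proteases share the zinc site and carry thrombospondin repeats that bind them to matrix, where they trim proteoglycans such as versican, process procollagens or act on fibrillin microfibrils. TIMPs fold into the active site of MMPs and block it. TIMP3 stays bound to matrix and also inhibits ADAMTS and ADAM proteases, while TIMP2 has a second role, since a complex of TIMP2 with MMP14 activates the MMP2 precursor. In the glomerulus, mesangial cells lay down and turn over the matrix between the capillaries, and metalloproteinases take part in that turnover.

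Each difference below is between 2 libraries, with no replicate check and no test. The control library held 15727023 counts and the AI662270 library 15062482, and counts are given in that order throughout. Counts were scaled to library size with TMM factors and are then given as CPM, the scaled counts relative to library size. A level compared between genes is CPM per kilobase of gene length. Folds are ratios of CPM, and the range in brackets is a 95% interval that covers counting error alone. Genes whose CPM averaged at least 1 are called measured. Such a gene is called higher or lower in the AI662270 library where it had a log2 ratio of at least 1 either way (pseudocount of 0.5 CPM) with an interval that leaves out 1. AI662270 itself had 0 and 241 counts, in the direction of its label.

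The cell labels were set against marker genes. Of 12 mesangial markers, Itga8, Thy1 and Ren1 were at 0 in both libraries and 5 were measured, among them Pdgfrb with 185 and 338 counts, Acta2 with 12 and 171 and Gata3 with 76 and 25, and the list summed to 43.6 and 56.0 CPM. Markers of tubule epithelium summed to 373 and 218 CPM over 7 genes, with Cdh1 at 2175 and 1030 counts, Epcam at 2810 and 1626 and Lrp2 at 693 and 740, while Slc34a1, Umod and Aqp2 were at 0. Among other lists, macrophage markers summed to 34.5 and 15.02 CPM over 6 genes with Adgre1 and Itgam at 0. Csf1r made up most of that sum, at 27.6 and 9.63 CPM, followed by Cd68 at 6.51 and 4.88 CPM. Ptprc had 5 and 1 counts and Lyz2 had 2 and 7. Neutrophil markers summed to 0.197 and 0.321 CPM over 5 genes with S100a9 and Mpo at 0. Endothelial markers summed to 0.987 and 1.99 CPM over 6 genes, with Tek and Emcn at 0. Fibroblast markers summed to 4.67 and 8.66 CPM over 6 genes, with Col1a2, Col3a1 and Lum at 0. The libraries thus held transcripts of epithelial genes beside a partial mesangial set, and what part these differences have in the results below was not tested. In bulk RNA, fewer cells that express a gene cannot be told apart from less RNA per cell.

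Of the 45 members, 30 had at least 1 count in either library, 19 were measured, 11 lay below the measuring limit and 15 were silent. Among the 19 measured members, 4 were higher in the AI662270 library (Mmp15, Adamts7, Adamts9 and Adamts10) and 3 were lower (Timp3, Adamts1 and Adamts6). These 7 are 36.8% of the measured members, while 11.3% of all 13268 measured genes were past the same rule, 5.59% higher and 5.72% lower, and 10.8% of measured protein-coding genes. The median log2 ratio of the measured members was 0.36, against -0.02 over all measured genes, and 11 of the 19 had a log2 ratio above 0. This median is the value of Mmp2, whose 18 and 26 counts showed no detectable difference. The members' log2 ratios ran from -3.07 to 1.42, so the median gives no common direction. With the pseudocount, none of the 4 higher members reached a rule of 3-fold, while Timp3 and Adamts1 did. With libraries scaled by total counts the split was 5 higher and 2 lower, because Timp2 crossed the limit and Adamts6 fell short of it. The 12 other measured members did not pass the rule. The 4 higher members averaged 1.35 to 12.3 CPM, while Timp3 and Adamts1 averaged 455 and 380 CPM. In the authors' deposited table, made from the same 2 libraries, 4 of the 27 members with an adjusted p-value were under 0.05, and so were 897 of all 20667 genes with one. The authors' deposited table lists Timp3 with a log2 fold change of -3.08 (adjusted p-value 2.32e-09), Adamts1 with -1.80 (0.00136), Adamts10 with 1.49 (0.0265) and Mmp10 with -7.35 (0.00171). With 1 library per group those p-values rest on no replicates. Mmp10 lay below the measuring limit used here and was not called.

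**Figure D1:**
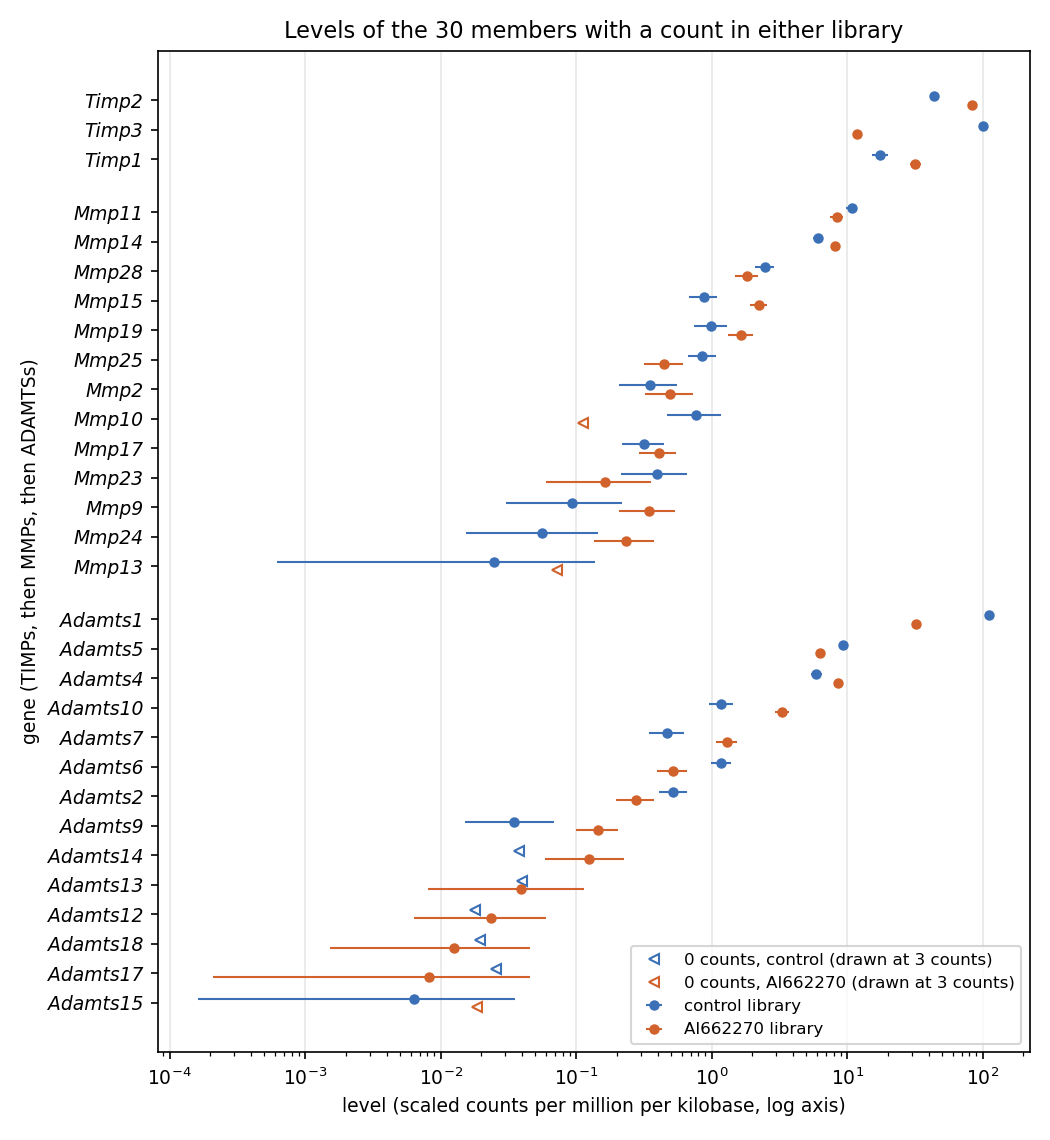
Level of the 30 members with a count in either library, in CPM per kilobase on a log axis, with 95% exact Poisson intervals. Blue is the control library, orange the AI662270 library, and open triangles mark 0 counts, drawn at the level that 3 counts would have. Adamts1, Timp3 and Timp2 hold the highest levels in the control library, and Timp3 and Adamts1 lie far lower in the AI662270 library, where Timp2 is highest.

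Among the inhibitors, Timp3 was lower in the AI662270 library while Timp1 and Timp2 had more counts there. Timp3 (ENSMUSG00000020044) lies on the plus strand of chromosome 10 (86300372 to 86349506, build mm10). It had 12369 counts in the control and 1504 in the AI662270 library, or 814 and 96.5 CPM. It was 8.43-fold lower (7.99 to 8.90) in the AI662270 library. Its log2 ratio of -3.07 was the 10th lowest among the 5152 genes that averaged 50 CPM or more. Per length, Timp3 ranked 379th of the 22046 protein-coding genes in the control and 4641st in the AI662270 library. Timp3 lies inside Syn3, a synapsin gene read from the opposite strand, but Syn3 itself had only 44 and 33 counts.

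Timp2, an inhibitor that many cells make constitutively, lies on the minus strand of chromosome 11 (118301069 to 118355740) and overlaps Cep295nl, which had 28 and 31 counts on the same strand. It had 2589 and 5057 counts, or 170 and 325 CPM, a ratio of 1.91 (1.82 to 1.999) that stopped short of the rule. Its log2 ratio was 0.93, and 1.03 with libraries scaled by total counts, where it passed. Timp1, an inhibitor that growth factors and cytokines induce, lies on the X chromosome from 20870166 to 20874735 inside Syn1, which is read from the opposite strand. It had 237 and 440 counts, a ratio of 1.81 (1.54 to 2.13), and also did not pass. Syn1 had 19 and 29 counts. Timp4 was at 0 in both libraries. The order of the inhibitors by level per kilobase was Timp3, Timp2, Timp1 in the control library, at 99.9, 43.7 and 17.6, and Timp2, Timp1, Timp3 in the AI662270 library, at 83.3, 31.8 and 11.9. Timp3 made up 62.0% of the summed TIMP level in the control library and 9.34% in the other, where Timp2 made up 65.6% against 27.1% in the control.

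The RefSeq promoter windows of build GRCm38.p6, which run from 250 bases before to 50 after a gene's start, are shown for Timp3 and Adamts1, the most abundant members past the rule, and for Timp2, which differed the other way from Timp3. Windows were found for 31 of the 45 members. Capitals mark the GC box GGGCGG or its reverse CCGCCC, and the TATA box TATAAA, searched on both strands. The Timp3 window is chr10:86300162-86300461 on the plus strand, the Timp2 window chr11:118355362-118355661 on the minus strand and the Adamts1 window chr16:85803064-85803363 on the minus strand.
Timp3: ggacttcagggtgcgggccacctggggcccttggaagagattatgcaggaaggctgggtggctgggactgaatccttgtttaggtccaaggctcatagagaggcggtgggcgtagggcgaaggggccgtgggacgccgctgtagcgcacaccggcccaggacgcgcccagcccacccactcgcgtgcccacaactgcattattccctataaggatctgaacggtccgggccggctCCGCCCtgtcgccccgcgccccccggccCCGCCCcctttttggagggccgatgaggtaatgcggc
Timp2: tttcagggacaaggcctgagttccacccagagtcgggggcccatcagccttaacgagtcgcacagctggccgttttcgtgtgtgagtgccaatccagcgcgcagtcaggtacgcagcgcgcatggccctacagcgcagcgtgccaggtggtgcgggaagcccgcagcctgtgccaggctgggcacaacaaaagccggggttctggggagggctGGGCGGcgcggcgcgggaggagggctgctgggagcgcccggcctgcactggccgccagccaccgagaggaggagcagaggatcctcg
Adamts1: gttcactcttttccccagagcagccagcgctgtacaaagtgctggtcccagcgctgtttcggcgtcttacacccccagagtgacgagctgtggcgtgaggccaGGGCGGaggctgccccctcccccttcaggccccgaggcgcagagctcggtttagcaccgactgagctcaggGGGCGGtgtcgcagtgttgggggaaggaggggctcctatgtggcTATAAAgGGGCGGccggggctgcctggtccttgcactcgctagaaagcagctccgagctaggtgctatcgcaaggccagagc
The Timp3 window holds 2 GC boxes, the Timp2 window 1, and the Adamts1 window 3 together with a TATA box that starts 32 bases before the gene's start. A GC box occurs in 35.7% of the 32851 promoter windows of the RefSeq table and a TATA box in 13.6%. Of the TIMP windows 3 of 4 hold a GC box, all but that of the silent Timp4, and of the ADAMTS windows 8 of 10 do. A match describes the letters of the window and shows no binding.

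Of the hyalectan-cleaving ADAMTS genes, whose enzymes cut the large proteoglycans versican and aggrecan, 1 of 4 measured members was lower and 1 higher. Adamts1 (ENSMUSG00000022893), on chromosome 16 from 85793827 to 85803113 on the minus strand, had 8974 and 2650 counts, or 590 and 170 CPM. It was 3.47-fold lower (3.32 to 3.63) in the AI662270 library, and no other gene of the table overlaps it. In the control library it ranked 321st among protein-coding genes per length, ahead of Timp3, and 1618th in the AI662270 library. Its neighbour Adamts5, an aggrecanase gene 53059 bases away on the same strand, had 1528 and 1053 counts, a ratio of 0.672 (0.621 to 0.728) that did not pass the rule. Adamts4, the other main aggrecanase, had 434 and 647 counts, a ratio of 1.45 (1.29 to 1.65), and did not pass either. Reads at its 5' end are uncertain, since the strand setting is unknown.

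Adamts9, a versican-cleaving enzyme, had 8 and 34 counts, was 4.15-fold higher (1.88 to 10.4) and reached the measuring limit only through the AI662270 library. Its call was lost with a pseudocount of 2 CPM, where the log2 ratio was 0.73, with a minimum mean of 5 CPM, and on the deposited FPKM values, where it was 0.28 with a pseudocount of 0.5. Adamts15 had 1 and 0 counts, and Adamts8 and Adamts20 were silent. The summed level of all ADAMTS genes per kilobase was 130 (128 to 132) in the control and 52.7 (51.2 to 54.3) in the AI662270 library, 2.46-fold lower (2.38 to 2.55). Adamts1 accounted for 85.7% of that sum in the control library and 60.8% in the other. Without Adamts1 the sums were 18.6 and 20.7, a ratio of 1.11 (1.04 to 1.18).

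The relatives that act on microfibrils and cartilage matrix went both ways. Adamts10 (ENSMUSG00000024299), whose protein binds fibrillin, had 98 and 282 counts, or 6.45 and 18.1 CPM, and was 2.81-fold higher (2.22 to 3.57) in the AI662270 library. Adamts6, its closest relative, had 139 and 63 counts, 2.26-fold lower (1.67 to 3.10). On the deposited lengths, the pair had near-equal control levels per kilobase, 1.18 and 1.17, but 3.32 against 0.519 in the AI662270 library. The deposited length of Adamts10, 5453 bases, is shorter than the 8254 bases of its joined exons in GENCODE M21. On the joined exons its level would be lower in both libraries alike, while Adamts6 has 7798 bases either way. The near-equality of the pair therefore rests on the deposited length of Adamts10. Adamts6 lost its call with scaling by total counts, where its log2 ratio was -0.996, and with a pseudocount of 2 CPM, where it was -0.88. On the deposited FPKM values it was -0.69 with a pseudocount of 0.5 FPKM, and the call was lost. That pseudocount is near its level of 0.519 per kilobase in the AI662270 library.

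Adamts7, which degrades cartilage oligomeric matrix protein (COMP), had 45 and 127 counts, 2.75-fold higher (1.95 to 3.96). Its 3' part overlaps Tbc1d2b on the opposite strand, which had 447 and 410 counts, where reads cannot be told apart without strand. On the deposited FPKM values its log2 ratio was 0.91 with a pseudocount of 0.5 FPKM, short of the rule. That pseudocount is near its level of 0.471 CPM per kilobase in the control library. Adamts12, of the same COMP-cleaving pair, had 0 and 4 counts. Of the procollagen N-proteinases, which remove the amino-terminal propeptide of fibrillar collagens, Adamts2 had 74 and 40 counts, a ratio of 0.527 (0.350 to 0.785) short of the rule. Adamts14 had 0 and 10 counts, 3.25-fold higher as a point value against the floor of 3 counts. The exact interval of its 2 counts starts at 2.19-fold higher. Adamts3 was silent. Adamts13, the protease of von Willebrand factor, had 0 and 3 counts. Adamts17 and Adamts18 had 1 and 2 counts, both in the AI662270 library, and Adamts16 and Adamts19 were silent.

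**Figure D2:**
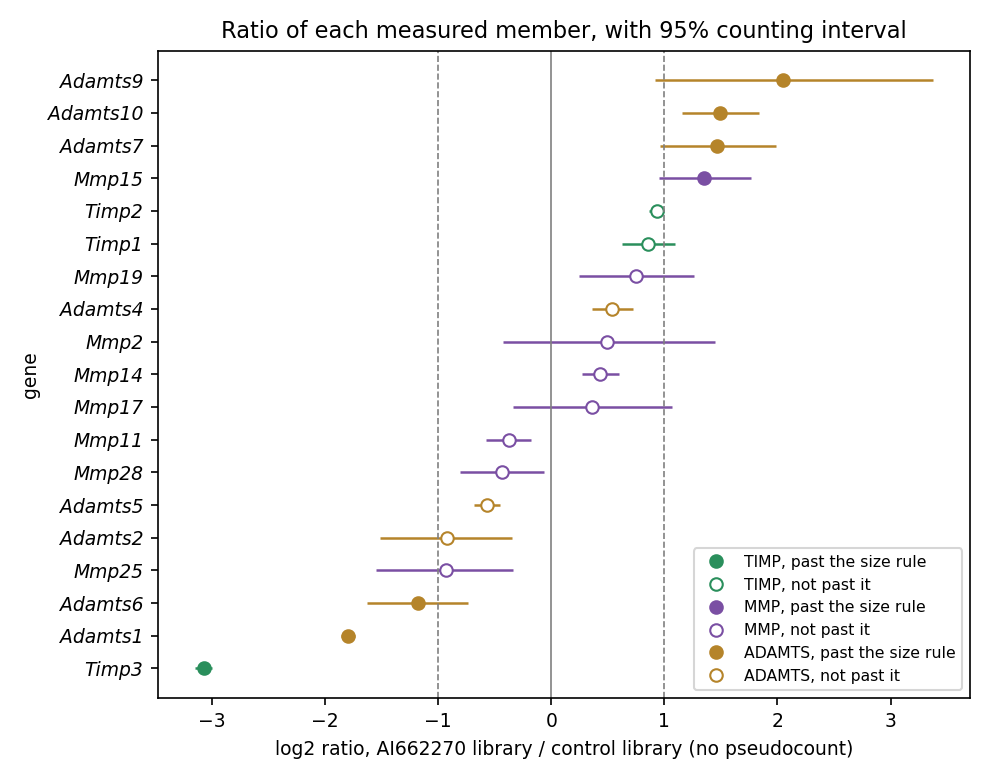
Ratio of the AI662270 library to the control library on a log2 axis for the 19 measured members, without pseudocount and with 95% exact counting intervals. Filled points passed the size rule and dashed lines mark 2-fold differences. Timp3 and Adamts1 lie below -1 with narrow intervals, and Adamts9 has the widest interval.

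The MMPs were expressed at lower levels than the inhibitors, and 1 of 8 measured MMPs passed the rule. That share, 12.5%, is near the 11.3% of all measured genes. Mmp15 (ENSMUSG00000031790), the gene of a membrane-type MMP on the plus strand of chromosome 8 (95352268 to 95375080), was the 1 that did. It had 72 and 188 counts, or 4.74 and 12.1 CPM, and was 2.55-fold higher (1.93 to 3.39) in the AI662270 library. Among its membrane-type relatives, Mmp14, the activator of the MMP2 precursor, had 549 and 760 counts, a ratio of 1.35 (1.21 to 1.51). Mmp17, held in the membrane by a lipid anchor, had 32 and 42 counts, and Mmp25, a lipid-anchored enzyme known from leukocytes, had 69 and 37, a ratio of 0.523 (0.341 to 0.791). None of these 3 passed. Mmp24, best known from neurons, had 4 and 17 counts, below the measuring limit, and it overlaps BC029722 on the opposite strand with 406 and 436 counts. Mmp16 was silent.

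Per kilobase, the MMP with the highest level in the control library was Mmp11, a stromelysin activated inside the cell by furin, with 459 and 362 counts and levels of 10.9 and 8.36. Its ratio was 0.770 (0.669 to 0.885), and it overlaps Chchd10 on the opposite strand, a mitochondrial gene with 192 and 57 counts. Mmp14 was at 6.06 and 8.18 per kilobase, and in the AI662270 library it differed from Mmp11 by less than counting error. Mmp11 and Mmp14 held 45.1% and 25.1% of the summed MMP level in the control library and 34.3% and 33.6% in the other. Mmp28, the epilysin gene, was the third in the control library at 2.46 per kilobase and had 145 and 110 counts, a ratio of 0.740 (0.572 to 0.955). Mmp28 lies on chromosome 11 from 83440768 to 83463071, 214163 bases beyond the chromosomal copy of AI662270. Mmp19 had 53 and 91 counts, a ratio of 1.68 (1.18 to 2.40), and overlaps Tmem198b on the opposite strand with 281 and 191 counts. None of these passed the rule.

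Gelatinases, which cut denatured collagen and the type IV collagen of basement membranes, were near the measuring limit. Mmp2, a gelatinase known from mesangial cells, had 18 and 26 counts, a ratio of 1.41 (0.744 to 2.73), so a difference was not detectable at this depth. Mmp9 had 5 and 19 counts, a ratio of 3.71 (1.34 to 12.7), and stayed below the measuring limit. Mmp23 had 14 and 6 counts, a ratio of 0.418 (0.132 to 1.16). For every gene at 0, the floor of 3 counts allows up to 0.197 CPM in the control library and 0.193 CPM in the AI662270 library.

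The collagenases, the stromelysins Mmp3 and Mmp10 and the matrilysin Mmp7 form, with Mmp12, Mmp20 and Mmp27, a gene cluster on chromosome 9. It holds 9 members between positions 7272514 and 7699585, and together they had 21 counts in the control and 0 in the AI662270 library. Mmp10 gave 20 of these counts. Mmp10 averaged 0.658 CPM, below the measuring limit, and was not called. Against the floor of 3 counts in the AI662270 library, it was 6.83-fold lower as a point value. The exact interval of its 2 counts starts at 5.06-fold lower. The remaining count was from Mmp13, and the other 7 genes, Mmp1b, Mmp3, Mmp7, Mmp8, Mmp12, Mmp20 and Mmp27, were at 0 in both libraries. The protein-coding genes next to the cluster were expressed, with 931 and 854 counts for Dcun1d5 before it and 1150 and 1470 for Tmem123 beyond it. None of the 4 other rows of the table inside the cluster had a count.

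Promoter letters set most of these cluster genes apart from the other members with a window, and the sequences are shown for that reason. Only exact letters were searched, and members without a window, such as Mmp9, were not. The 100 bases before the RefSeq start are shown for the 5 cluster genes whose stretch holds both the AP-1 element TGACTCA (or its reverse TGAGTCA), which FOS and JUN proteins bind, and the TATA box, with both in capitals. Coordinates in build GRCm38.p6 are chr9:7272414-7272513 for Mmp13, chr9:7388027-7388126 on the minus strand for Mmp1b, chr9:7445722-7445821 for Mmp3, chr9:7502242-7502341 for Mmp10 and chr9:7691990-7692089 for Mmp7, all on the plus strand but that of Mmp1b.
Mmp13: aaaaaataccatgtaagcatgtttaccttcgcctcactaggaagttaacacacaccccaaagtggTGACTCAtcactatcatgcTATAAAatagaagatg
Mmp1b: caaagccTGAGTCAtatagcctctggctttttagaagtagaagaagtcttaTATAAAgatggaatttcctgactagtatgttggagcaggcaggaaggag
Mmp3: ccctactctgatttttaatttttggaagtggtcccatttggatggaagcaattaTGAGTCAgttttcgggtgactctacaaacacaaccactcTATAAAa
Mmp10: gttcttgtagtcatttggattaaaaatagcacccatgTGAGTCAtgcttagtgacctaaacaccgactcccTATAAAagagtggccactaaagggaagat
Mmp7: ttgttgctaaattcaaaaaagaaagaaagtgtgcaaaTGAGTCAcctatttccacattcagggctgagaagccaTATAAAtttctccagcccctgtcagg
In the Mmp10 stretch the AP-1 letters start 63 bases and the TATA box 29 bases before the gene's start, and in the Mmp7 stretch 63 and 26 bases. These distances vary, with 35 and 16 bases for Mmp13, 46 and 7 for Mmp3, and 93 and 49 for Mmp1b. In the whole windows the AP-1 letters were found in 6 of the 9 cluster genes, the 5 above and Mmp12 at its second listed start. They were found in 0 of the 8 other MMPs with a window, 0 of 4 TIMPs and 0 of 10 ADAMTS genes, and in 5.2% of all promoter windows. That share is by window, while members are counted by gene, with a match in any listed window of the gene. The silent Mmp21, Timp4, Adamts3 and Adamts20 are among those without the AP-1 letters. TATA letters, at any position of the window, were in 8 of the 9 cluster genes and in 1 of the 8 other MMPs, the silent Mmp21. Outside the MMPs they were in Adamts1 alone. In Mmp12 they start 4 bases after its second listed start, and in Mmp8 the reverse letters start 3 bases before the start. GC boxes were in 0 of the 9 and in 7 of the 8. No match in a window says only that these letters are not there.

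Outside this cluster Mmp16, Mmp21, Timp4, Adamts3, Adamts8, Adamts16, Adamts19 and Adamts20 were the remaining silent members. Thus 9 of 22 MMPs, 5 of 19 ADAMTS genes and 1 of 4 TIMPs had no count in either library. At least 1 count was found for 25 of the 45 members in the control and for 27 in the AI662270 library.

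The proteases were then set against their inhibitors by summing levels per kilobase within each family. The TIMP sum was 161 (158 to 164) in the control and 127 (123 to 131) in the AI662270 library, 1.27-fold lower (1.22 to 1.32). The MMP sum was 24.1 (22.8 to 25.4) and 24.4 (23.1 to 25.6), a ratio of 1.01 (0.937 to 1.09). TIMP transcripts thus stood to MMP transcripts as 6.68 (6.30 to 7.09) to 1 in the control library and as 5.21 (4.91 to 5.53) to 1 in the AI662270 library. This shift of 0.780 (0.718 to 0.848) rests on Timp3: without it the ratio of TIMPs to MMPs was 2.54 and 4.73, a shift the other way of 1.86 (1.69 to 2.04). On counts not divided by length the shift was 0.400.

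Against the ADAMTS sum the direction of the ratio of the summed TIMPs depended on Adamts1. TIMP transcripts stood to ADAMTS transcripts as 1.24 (1.21 to 1.28) to 1 in the control library and as 2.41 (2.31 to 2.51) to 1 in the AI662270 library, a shift of 1.94 (1.85 to 2.04). Without Adamts1 the ratio was 8.65 and 6.15, a shift the other way of 0.711 (0.662 to 0.763), and on counts not divided by length the shift was 1.06 (1.01 to 1.11). Timp3 alone, the inhibitor known for blocking ADAMTS enzymes, stood to the ADAMTS sum as 0.769 and 0.225, a 3.42-fold lower ratio (3.21 to 3.64). For the pair that activates the MMP2 precursor, Timp2 stood to Mmp14 as 7.21 (6.58 to 7.91) in the control library and as 10.2 (9.43 to 10.99) in the AI662270 library. These sums weigh transcripts alike and say nothing of protein or of enzyme activity.

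**Figure D3:**
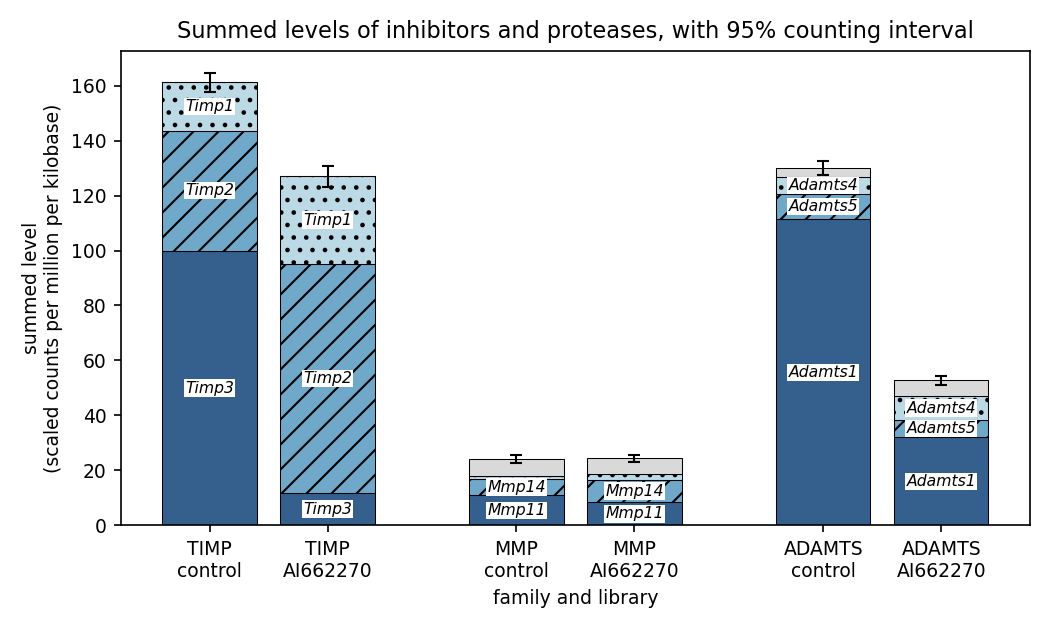
Summed level of each family in each library, in CPM per kilobase, on an axis that starts at 0, with 95% counting intervals. Blocks from the bottom are Timp3, Timp2 and Timp1, then Mmp11, Mmp14 and Mmp15 with the other MMPs in grey, then Adamts1, Adamts5 and Adamts4 with the other ADAMTS genes in grey. The TIMP bars change from mostly Timp3 to mostly Timp2, the MMP bars stand at 24.1 and 24.4, and the ADAMTS bar is 2.46-fold lower in the AI662270 library.

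Genes that work with the system were taken from lists chosen with earlier results of these data known, and their counts stand beside the 5.59% of all measured genes that were higher and the 5.72% that were lower. Of 18 ADAM and ADAMTS-like genes, 9 were measured, 1 higher and 2 lower, with a median log2 ratio of 0.06. Adam8, a surface protease of activated cells, had 758 and 196 counts, 3.96-fold lower. Adam12 had 20 and 53 counts, 2.59-fold higher, and Papln, which encodes the ADAMTS-like protein papilin, had 95 and 43 and was 2.26-fold lower. Adam17, which sheds growth factors and is itself blocked by TIMP3, had 1789 and 1917 counts. Adamtsl4 and Adamtsl5 had 351 and 523 and 494 and 416 counts. Neither these nor Adam17, which were named after their values were seen, passed the rule. Of the 7 astacin proteases and enhancers 3 were measured and none passed, and the most abundant, Pcolce and Bmp1, had 2978 and 3716 and 1399 and 1515 counts.

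Among 25 activators and regulators, 18 were measured, 1 higher and 5 lower, with a median of -0.05. The proprotein convertase gene Pcsk6 had 2 and 31 counts, a ratio of 15.1 (3.85 to 130), and reached the measuring limit only through the AI662270 library. Its relative Pcsk5 had 58 and 23 counts, 2.58-fold lower. Furin, which cuts the propeptide of membrane-type MMPs and ADAMTS enzymes, had 1565 and 1449 counts and did not pass. Thbs1, whose protein binds MMP2 and MMP9, was 7.71-fold lower and Plau, which makes the plasmin that activates several MMP precursors, 4.26-fold lower. Reck, a membrane-anchored inhibitor of MMPs, had 87 and 131 counts, a ratio of 1.47 that did not pass, and Bsg, an inducer of MMPs, had 7491 and 14314 counts, a ratio of 1.86 that did not pass.

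Of 28 matrix substrates 17 were measured, 2 higher and 2 lower, with a median of 0.08. The lower ones were Col4a3 and Col4a4, neighbouring type IV collagen chains of the glomerular basement membrane. Col4a3 had 80 and 7 counts, 11.7-fold lower (5.43 to 30.1), and reached the measuring limit only through the control library. Col4a4 had 295 and 59 counts, 5.12-fold lower (3.86 to 6.90). Lama1, a laminin chain, had 17 and 65 counts, 3.73-fold higher. Versican, the ADAMTS1 substrate encoded by Vcan, had 249 and 403 counts and did not pass, and Acan, the aggrecan gene, was silent. Among 18 transcription factors named for MMP promoters, all were measured, and 8 of them were lower and 0 higher. Their median log2 ratio was -0.62. The largest falls were in Fos, Egr1 and Fosb, which were 23.8-fold, 20.6-fold and 8.76-fold lower. Whether these factors act on the members was not tested.

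**Figure D4:**
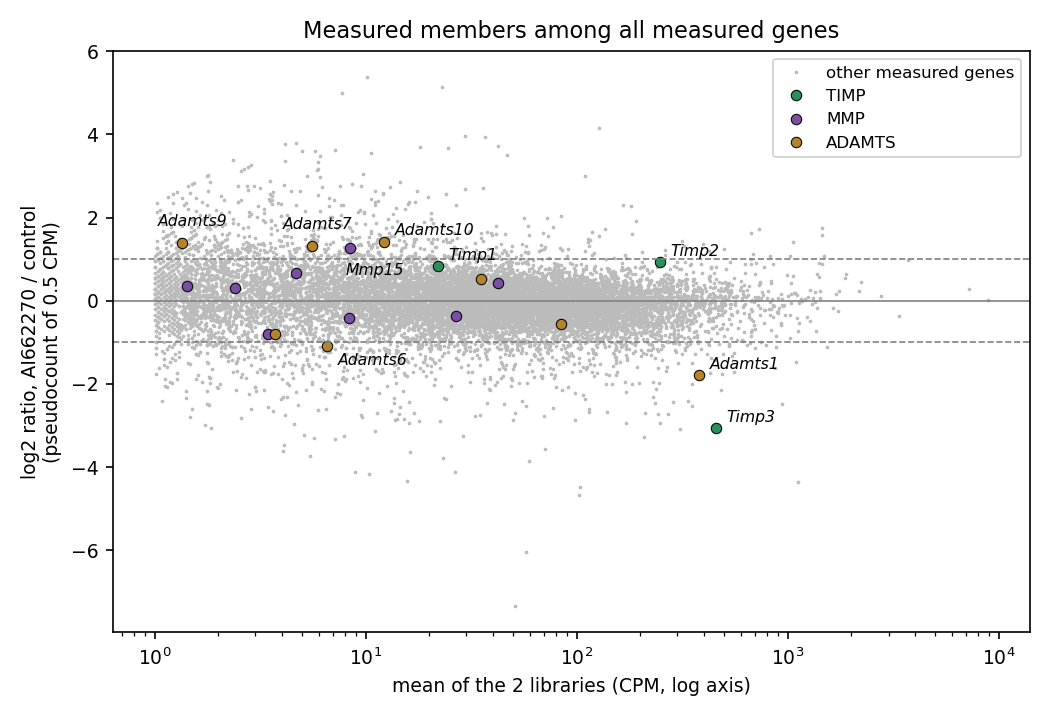
Log2 ratio (pseudocount of 0.5 CPM) against the mean CPM of the 2 libraries, on a log axis, for all 13268 measured genes in grey and the 19 measured members in colour, with names for the TIMPs and the members past the rule. Dashed lines mark 2-fold differences. The 4 higher members lie between 1.35 and 12.3 CPM, and Timp3 and Adamts1 are abundant genes far below the grey cloud's centre.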

How the data were processed

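The labels call the material polyadenylated RNA, while the design text speaks of removed ribosomal RNA. Per the submitters' processing notes, CASAVA 1.4, TopHat2 and build mm10 were used. Neither the counting tool nor its annotation or strand mode is given in the sources used here. Reads of overlapping genes may therefore be shared. The deposited count columns hold whole reads per gene. The deposited FPKM columns equal counts divided by gene length and by 15391166 in both libraries. The signal columns (counts the authors rescaled) entered no result. Fold changes as log2 and p-values come from the authors, as deposited.

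All 45 members were in GENCODE M21, 44 with the same coordinates and 43 with a length equal to their joined exons. CPM is the count divided by the effective library size and multiplied by 1000000. Counts were scaled with TMM (edgeR 4.0.16, R 4.3.3). Ratios used Python 3.11.15, numpy 2.4.6, pandas 2.3.3 and scipy 1.17.1. Intervals of ratios are exact Clopper-Pearson intervals of the share of 2 counts at 95%, and those of sums treat counts as Poisson on a normal approximation. They cover counting error only, since reads carry no molecular identifiers. The size rule was tested on simulated counts that carry counting error alone, so that test does not cover spread between cultures. Alternatives included DESeq2 1.42.0 size factors, which were 1 in both libraries, so that alternative compared unscaled counts. The FPKM columns, with the same divisor in both libraries, carry the same scaling. Members and lists were chosen with earlier results of these data known. By rule, values are printed for every member past the size rule, the TIMPs, the 3 most abundant MMPs and ADAMTS genes, and up to 3 genes per related list past the size rule, or its 2 most abundant where none passed. Other members and list genes with printed values were added after their values were seen. The result of 1 marker list and the partner of 1 overlap are not reported here.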

Additional observations from a re-analysis of the deposited data

How the results depend on the processing

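No paired analysis was possible because each group held 1 library. Under the alternatives run on ratios, the 7 members past the size rule kept their direction. Timp3 and Adamts1 were past it under every alternative, with log2 ratios from -3.07 to -2.97 and from -1.79 to -1.69. The number of higher members, 4, was 7 without a filter on low counts (adding Adamts14, Mmp9 and Mmp24, beside Mmp10 among the lower ones), 7 at 1.5-fold, 0 at 3-fold and 2 on the FPKM columns. It was 5 with total counts, and 3 with a pseudocount of 2 CPM and at a mean of at least 5 CPM. The number of lower members, 3, was 5 at 1.5-fold and 4 without a filter. It was 2 with total counts, with a pseudocount of 2 CPM, at 3-fold and on the FPKM columns. Over all genes, 742 were higher and 759 lower. The higher genes were 400 with a pseudocount of 2 CPM, 391 at a mean of at least 5 CPM and 486 on FPKM with its pseudocount of 0.5. At 1.5-fold the counts were 1705 and 1893, and at 3-fold 247 and 262. The TIMP sum, 0.788-fold of the control, was 0.843 with total counts, 0.826 with upper quartiles and 0.450 without division by length. Without Timp3 it reversed to 1.88, and the ratio of TIMPs to MMPs reversed to 1.86. That ratio, 0.780, was 0.400 without division by length and 0.652 without Mmp11. The MMP sum, 1.01, was 1.12 without division by length and 1.21 without Mmp11. The ADAMTS sum, 0.406, was 0.434 with total counts, 0.426 with upper quartiles and 0.424 without division by length. Further alternatives were chosen after seeing the data. Without Adamts1 the ADAMTS sum reversed to 1.11 and the ratio of TIMPs to ADAMTS genes, 1.94, reversed to 0.711. That ratio was 4.63 without Timp3 and 1.06 without division by length. The ratio of Timp3 to the ADAMTS sum, 0.292, was 0.107 without Adamts1. The shifts under total counts and upper quartiles follow from the scaling factors. Without division by length, longer genes weigh more in a sum. Timp3 has 8144 bases against 3896 for Timp2 and 888 for Timp1, and Mmp14 has 5960 against 2778 for Mmp11. The part of each gene in those shifts was not tested. With 1 library per group, no spread between cultures is known, and members with few counts have wide intervals.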
